A study of Homo sapiens with 4 samples.

Results

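The 6 genes UBR7, NSF, HRAS, GSDMD, ABR and HMOX2 were chosen because their RNA level differed by more than 2-fold between 3-D and 2-D grown Elf1 cells and because hg38 holds a near-identical copy of each on an alternate contig. They are 6 of the 60564 gene identifiers in the files and 6 of the 22555 genes that passed the filter on low counts, and all 6 members passed that filter. Their own change between culture conditions was used to choose them, so it is described here without a test. Tests are given for genes picked by position, the neighbors within 250 kb of each gene, and for lists of genes from the same pathways.

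Elf1 is an established naïve human ESC line, and all libraries came from this 1 line. The 2-D cells were adherent on coated plastic. By the paper's methods, Elf1 cells were maintained on mouse feeder cells and moved to Matrigel without feeders before encapsulation. The 3-D cells were dissociated, encapsulated as single cells in self-assembling scaffolds of PEG-8-SH/PEG-8-Acr, and kept there for 21 days, and cells of both conditions received ESC expansion medium. RNA-seq after depletion of ribosomal RNA gave 2 independent biological replicates per condition, so 4 libraries were compared. In bulk samples of this kind, fewer cells of a type and less RNA per cell cannot be told apart. The 2-D cultures were passaged routinely while the 3-D cultures were not passaged over the 21 days, and this difference cannot be told apart from the scaffold.

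An alternate contig is a second version of a stretch of a chromosome that the genome assembly carries beside the primary chromosome, because that stretch differs between people. Where the versions are alike, a read can match the primary chromosome and the contig equally well, and a counting program may keep, split or drop such a read. Whether the index used for mapping held the alternate contigs, and how reads with several matches and the strand of a read were treated in counting, is not given in the sources used here. The files list 1 identifier for each of the 6 genes, so reads placed on a contig copy have no row of their own there.

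The copies were identical to the chromosome across the whole body of 4 of the genes. For UBR7, HRAS, HMOX2 and GSDMD, the full gene body aligned to 1 contig with 0 substitutions and 0 insertions or deletions, and every exonic window as long as the stretches printed here occurred letter for letter on an alternate contig. The following stretches of coding exons are shown because the same letters stand on the primary chromosome and on the contig, so that a read from them fits both places. They are from hg38, 5′ to 3′ along the gene. UBR7 is at chr14:93220280-93220380 (+) and at chr14_KI270847v1_alt:334842-334942, HRAS at chr11:532647-532747 (−) and at chr11_KI270832v1_alt:62288-62388, and HMOX2 at chr16:4509641-4509741 (+) and at chr16_KI270855v1_alt:211964-212064.
UBR7: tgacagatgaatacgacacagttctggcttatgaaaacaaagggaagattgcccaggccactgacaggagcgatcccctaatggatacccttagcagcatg
HRAS: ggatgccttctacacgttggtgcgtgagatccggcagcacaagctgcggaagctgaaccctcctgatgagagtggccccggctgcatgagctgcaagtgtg
HMOX2: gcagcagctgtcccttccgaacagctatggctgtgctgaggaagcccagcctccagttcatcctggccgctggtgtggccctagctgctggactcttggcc

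NSF and ABR each matched 2 contigs of chromosome 17, with few exonic substitutions but many more over the gene body. The NSF body had 70 substitutions against chr17_KI270908v1_alt and 166 against chr17_GL000258v2_alt. The ABR body had 313 against chr17_KI270862v1_alt, which aligned to 83.6% of it, and 141 against chr17_KI270910v1_alt, which aligned to 49.8%. NSF had 0 exonic substitutions against chr17_KI270908v1_alt and 4 against chr17_GL000258v2_alt, of which 1 was in coding sequence. ABR had 5 exonic substitutions against chr17_KI270862v1_alt, which aligned to 91.2% of its exonic bases, and 4 against chr17_KI270910v1_alt, which aligned to 71.6%. Of exonic windows of the same length, 99.7% for NSF and 85.6% for ABR occurred unchanged on a contig. The coding difference of each gene from the contig named with it is shown as an example of a base at which a read can tell the chromosome from that contig. The NSF stretch is the same on the chromosome and on chr17_KI270908v1_alt, so a read from it still fits both of those places. Capitals mark the differing base, and positions count from 1 at the 5′ end of the stretch. The substitution is G31A in NSF, at chr17:46751535-46751595 (+) and chr17_GL000258v2_alt:1737411-1737471, and also G31A in ABR, at chr17:1067143-1067203 (−) and chr17_KI270862v1_alt:110413-110473.
NSF chromosome: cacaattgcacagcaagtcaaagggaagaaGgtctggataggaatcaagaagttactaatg
NSF contig: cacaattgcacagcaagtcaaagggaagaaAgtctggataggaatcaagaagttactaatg
ABR chromosome: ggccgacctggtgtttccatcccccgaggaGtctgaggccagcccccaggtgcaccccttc
ABR contig: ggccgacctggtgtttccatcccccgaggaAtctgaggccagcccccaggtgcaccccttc

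None of the 6 genes had a near-identical copy on another primary chromosome, under the limits of at least 80% of the longest transcript aligned with at least 98% identity.

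Depth was greater in 2-D, where replicates 1 and 2 summed to 33833778 and 30114220 counts, than in 3-D, where they summed to 21154409 and 18276147. The quasi-likelihood test of edgeR, with p-values adjusted by Benjamini-Hochberg and a threshold of 0.05, called 7.9% of the 22555 tested genes, 4.54% higher and 3.36% lower in 3-D. With library size as the only normalization, 21.5% of the called genes were higher in 3-D, against 57.5% with TMM normalization, and the median log2 fold change of all genes was -0.06. All 8 pluripotency markers were detected, with LIN28A at 1688 to 1803 CPM without TMM scaling and NANOG at 200 to 210 CPM. Markers of other cell types were mixed. SOX17 of the endoderm list was at no more than 0.189 CPM and DCN of the fibroblast list at no more than 0.199 CPM. LUM of the fibroblast list was at no more than 0.930 CPM. In the endoderm list, GATA4 lay between 4.54 and 5.96 CPM, GATA6 between 0.857 and 2.27 CPM and FOXA2 at no more than 0.284 CPM. TBXT, MIXL1 and EOMES of the mesoderm list lay between 10.4 and 34.2 CPM, and HAND1 between 0.621 and 1.26 CPM. In the neural ectoderm list, the highest values were 0.985 CPM for PAX6, 0.164 for SOX1 and 0.0473 for NEUROG2. Of the trophoblast list, CGA was at 0 in every library, but KRT7 lay between 2.13 and 2.52 CPM. GATA3 and TFAP2A of that list were at no more than 0.598 and 0.897 CPM. The marker THY1 of the fibroblast list rose in 3-D by a log2 fold change of 0.22 ± 0.04 (SE; edgeR, adjusted p = 0.00453), the 1 called gene of that list, which also held COL1A2 at 292 to 331 CPM and PDGFRB at 6.95 to 8.97 CPM. The part of these markers in the results for the 6 genes was not tested.

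The levels of the 6 genes ran from the lowest percentile of tested genes to about their median. Values are CPM, the count of a gene scaled to a common library size with TMM normalization, and reads behind them ranged from 7 to 326 per library. For comparison between genes, CPM was divided by the exonic length in kilobases. In 2-D, the order from high to low was HMOX2 at 2.59, HRAS at 0.611, UBR7 at 0.381, GSDMD at 0.353, ABR at 0.207 and NSF at 0.0381 CPM per kb, where the median of all tested genes was 2.57. UBR7 and GSDMD were neighbors in this order, and their values in single libraries, from 0.281 to 0.481 for UBR7 and from 0.313 to 0.394 for GSDMD, overlapped. HRAS, from 0.481 to 0.741, lay next to UBR7 and their ranges overlapped at 0.481. In 3-D, HRAS was at 2.71, UBR7 at 2.43, HMOX2 at 1.16, NSF at 0.214, GSDMD at 0.103 and ABR at 0.0886 CPM per kb. The ranges of the libraries overlapped between HRAS and UBR7 and between GSDMD and ABR there. NSF, the ATPase that takes spent SNARE complexes apart, lay at percentile 0.289 of the tested genes in 2-D and percentile 7.73 in 3-D.

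UBR7, a ubiquitin ligase with a UBR box that acts on histone H2B, lies at chr14:93207241-93229215 (+). Its level was 0.987 and 1.69 CPM in 2-D replicates 1 and 2 and 9.44 and 7.59 CPM in 3-D replicates 1 and 2. Both 3-D libraries were above both 2-D libraries. The mean rose from 1.34 ± 0.495 to 8.51 ± 1.31 CPM (SD, n = 2), a log2 fold change of 2.69 or 6.44-fold, the largest of the 6.

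NSF lies at chr17:46590669-46757679 (+) and was at 0.494 and 0.227 CPM in 2-D and 2.04 and 2.01 CPM in 3-D. The groups did not overlap, but the 2-D libraries held only 17 and 7 counts and stood 2.17-fold apart. The exact 95% Poisson interval of the count of 7 runs from 2.81 to 14.4, and it covers counting error only. The log2 fold change was 2.45, or 5.47-fold, and leaving out 2-D replicate 1 or 2-D replicate 2 gave 3.13 or 2.03.

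HRAS, the small GTPase that passes growth factor signals to RAF kinases, lies at chr11:532242-537321 (−). It was at 1.80 and 1.17 CPM in 2-D and 4.91 and 8.26 CPM in 3-D. The higher 2-D library was below the lower 3-D library. The log2 fold change was 2.12, or 4.35-fold, with a 1.68-fold gap between the 3-D libraries.

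ABR, a protein with both exchange and GTPase-activating domains for small GTPases such as RAC1 and a relative of BCR, lies at chr17:1003519-1229738 (−). It was at 3.02 and 2.17 CPM in 2-D and 1.22 and 1.004 CPM in 3-D. The groups did not overlap, and the mean fell by 1.22 on the log2 scale, which is 2.33-fold. Without 2-D replicate 1 the log2 fold change was -0.96, inside the 2-fold limit.

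HMOX2, the constitutive heme oxygenase, lies at chr16:4474690-4510347 (+) and overlaps NMRAL1 on the other strand. Without strand, reads of these genes cannot be told apart where they overlap. Each of the other named genes also overlaps an annotated gene on the other strand, as TIMM22 for ABR and RPS7P11 for NSF. HMOX2 was at 6.88 and 10.6 CPM in 2-D and 1.90 and 5.97 CPM in 3-D. All 2-D values were above the 3-D values, but the 3-D libraries stood 3.15-fold apart, which is wider than the 2.26-fold change between the condition means. The log2 fold change was -1.18. Leaving out 3-D replicate 1 gave -0.54 and leaving out 3-D replicate 2 gave -2.19, so this value rests on which 3-D library is used.

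GSDMD, the gasdermin that forms pores in the membrane once inflammatory caspases have cut it, lies at chr8:143553207-143563062 (+). It was at 2.00 and 1.59 CPM in 2-D and 0.487 and 0.558 CPM in 3-D. Both 3-D libraries held 10 counts, and they were below both 2-D libraries. The log2 fold change was -1.78, or 3.45-fold lower in 3-D.

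**Figure D1:**
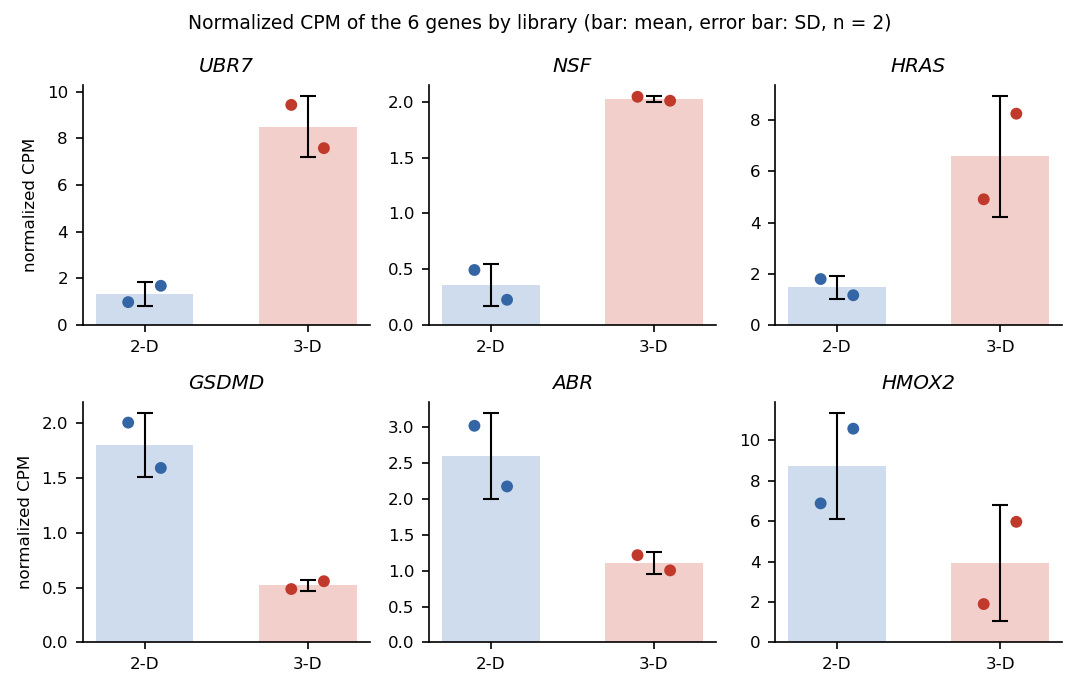
Normalized CPM of each gene in 2-D and 3-D, with points for the 4 libraries, bars for the mean and error bars for the SD (n = 2). UBR7, NSF and HRAS were higher and GSDMD, ABR and HMOX2 lower in 3-D, and the spread of HMOX2 between its 3-D libraries, from 1.90 to 5.97 CPM, was the widest in fold among the genes.

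The libraries of the conditions did not overlap for any of the 6 genes, which was also so for 50.5% of all tested genes, and an absolute log2 fold change above 1 was found for 1.54% of them. The choice of the genes used this contrast, so nothing is read from either count. Among genes with a contig copy, the values just outside this limit were those of BRD2 at -0.93 and NTAN1 at 0.99 (log2 fold change), and those just inside were ENSG00000229413 at -1.01 and SINHCAFP2 at -1.02. The direction of all 6 genes held under every alternative and with each library left out. The genes were chosen by this contrast and their libraries did not overlap. A change of sign had little room, so nothing is read from this either.

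**Figure D2:**
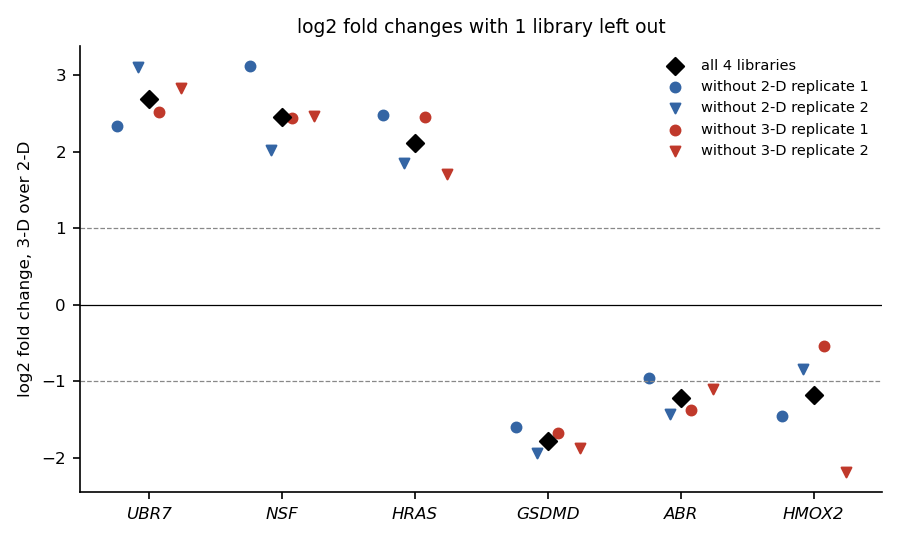
The log2 fold change of each gene with all 4 libraries (black) and with 1 library left out (colored), with dashed lines at a 2-fold change. ABR without 2-D replicate 1 (-0.96) and HMOX2 without 3-D replicate 1 (-0.54) or 2-D replicate 2 (-0.84) came inside the 2-fold limit. No value changed sign, for which libraries that do not overlap between conditions left little room.

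The neighbors ask whether the loci as a whole moved with the 6 genes. Within 250 kb of their bodies, 85 other genes were tested, 31 with a near-identical copy on an alternate contig and 54 without. Of the 31 with a copy, 3 rose and 1 fell, against a background of 7.9% called in either direction, and 6 changed by more than 2-fold. Of the 54 without a copy, 6 rose and none of the 54 changed by more than 2-fold. The median log2 fold change was 0.30 with a copy and -0.01 without, against -0.00014 for all tested genes. These values pool loci whose named gene rose with loci whose named gene fell. With a copy, the median was 0.60, 0.37 and 0.36 at the UBR7, NSF and HRAS loci. It was -0.54, -0.01 and -0.04 at the GSDMD, ABR and HMOX2 loci. These medians rest on 2 neighbors at ABR to 11 at GSDMD and were not tested. With library size as the only normalization, 5 neighbors were called higher and 3 lower, where the TMM fit called 9 higher and 1 lower. The 10 called neighbors became 17 when 2-D replicate 1 was left out, 21 when 3-D replicate 1 was left out, and 3 with DESeq2. DESeq2 gave no adjusted p for 26 of the 31 neighbors with a copy, 3 of the 4 called ones included, and its unadjusted p was below 0.05 for all 4.

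**Figure D3:**
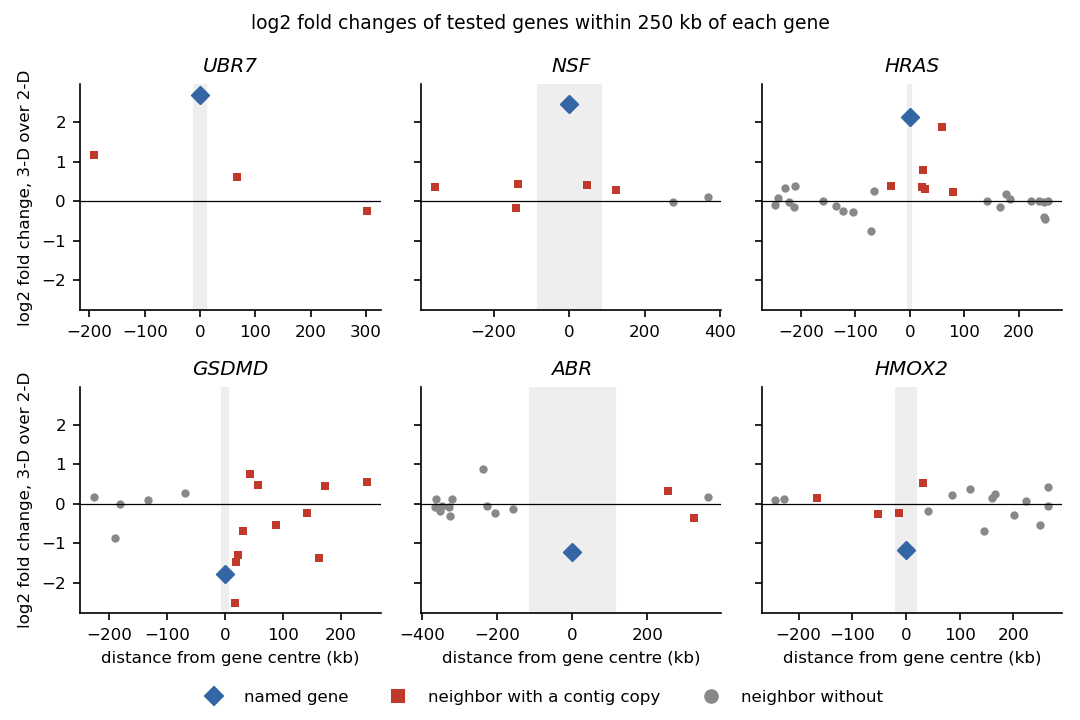
The log2 fold change (3-D over 2-D) of each tested gene against the distance of its centre from the centre of the named gene in kb, with the body of the named gene in gray; neighbors lie within 250 kb of that body. The points beyond 2-fold other than the named genes are all neighbors with a contig copy, as ITPK1 at 1.16, PHRF1 at 1.87 and ENSG00000255050 at -2.50.

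At the UBR7 locus, all 3 tested neighbors had a contig copy. BTBD7, a BTB domain protein 8.335 kb away, was at 4.30 and 5.19 CPM in 2-D and 6.42 and 7.98 CPM in 3-D. It rose by 0.60 ± 0.15 on the log2 scale (SE; edgeR, adjusted p = 0.0262), but not past the threshold without 2-D replicate 1 (adjusted p = 0.113, edgeR) or 3-D replicate 2 (adjusted p = 0.0703, edgeR). ITPK1, an inositol phosphate kinase, was at 6.59, 2.04, 7.69 and 12.1 CPM, in the order 2-D replicates 1 and 2 and 3-D replicates 1 and 2 (log2 fold change 1.16, edgeR adjusted p = 0.0661). UNC79, a subunit of a sodium leak channel complex, had a log2 fold change of -0.26 and overlapping libraries.

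At the NSF locus, none of the 7 tested neighbors was called, with none at an unadjusted p below 0.05 in edgeR or in DESeq2. The 5 with a copy were all at a mean of 0.770 CPM or less in 2-D. They included WNT3, a secreted ligand of the Wnt pathway, at 0.697, 0.844, 1.12 and 0.725 CPM. The libraries of the conditions overlapped for it. GOSR2, a Golgi SNARE and the nearest gene without a copy on its side, lay between 54.0 and 55.5 CPM in all 4 libraries, a log2 fold change of -0.03 ± 0.04.

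At the HRAS locus, the 6 neighbors with a copy all had positive log2 fold changes, from 0.22 to 1.87. Only 1 of these 6 neighbors was called, and their median level in 2-D was 1.31 CPM. The libraries of the conditions overlapped for LMNTD2, RASSF7 and IRF7. PHRF1, a PHD and RING finger protein 39149 bases from HRAS, was at 4.44 and 3.18 CPM in 2-D and 17.5 and 10.3 CPM in 3-D, and rose by 1.87 ± 0.21 on the log2 scale (edgeR, adjusted p = 0.000251). That call held in all 10 refits that gave an adjusted p, each library left out included. RNH1, the ribonuclease inhibitor and the nearest on the other side, had a log2 fold change of 0.38 (edgeR adjusted p = 0.300). The 22 neighbors without a copy ranged from -0.75 to 0.38, and the interferon-induced IFITM3 among them rose by 0.38 ± 0.03 from 206 ± 2.27 to 268 ± 1.46 CPM (SD, n = 2; edgeR, adjusted p = 1.41e-05). IFITM2 and EPS8L2 were also called higher, at 0.34 and 0.18, and lost the call in 5 and 6 of 11 refits, both with DESeq2, with library size only and without 2-D replicate 2 or 3-D replicate 2.

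At the ABR locus, YWHAE, the epsilon member of the 14-3-3 adaptors, has a contig copy and every exonic window of it stands on a contig. It was at 30.3 and 27.0 CPM in 2-D and 36.1 and 35.6 CPM in 3-D and rose by 0.32 ± 0.07 on the log2 scale (edgeR, adjusted p = 0.0131), opposite to ABR, and the call was lost without 2-D replicate 2 (edgeR, adjusted p = 0.127). CRK, an adaptor protein, was the other neighbor with a copy and had a log2 fold change of -0.35 (edgeR adjusted p = 0.0666). Of the 12 neighbors without a copy, MYO1C, an unconventional myosin, rose by 0.17 ± 0.04, a call lost in 5 of 11 refits, among them DESeq2, library size only, and the fits without 2-D replicate 2 or 3-D replicate 2. NXN, a redox regulator and the nearest tested gene before ABR, had a log2 fold change of -0.06.

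At the HMOX2 locus, none of the 4 neighbors with a copy was called, and 1 of them was at an unadjusted p below 0.05 in edgeR and none in DESeq2. NMRAL1, the overlapping NADPH sensor, was at 2.15, 4.41, 4.28 and 1.06 CPM, so that its 3-D libraries stood 4.04-fold apart and in the opposite order to those of HMOX2. CDIP1, a regulator of p53-dependent apoptosis 322 bases away, was at 7.03, 5.78, 6.23 and 12.4 CPM. Without a copy, UBALD1 rose by 0.36 ± 0.07 and the ubiquitin ligase MGRN1 by 0.15 ± 0.03, of which UBALD1 was called in all 11 refits, and MGRN1 lost its call in 5 of 11, among them DESeq2, library size only, and the fits without 2-D replicate 1 or 2-D replicate 2.

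The GSDMD locus had 11 neighbors with a copy, and 4 of them were more than 2-fold lower in 3-D. Another 4 had positive log2 fold changes, from 0.44 for FAM83H to 0.75 for TIGD5. SCRIB among these was at 31.0 and 13.6 CPM in 2-D and 27.8 and 38.2 CPM in 3-D. Its libraries overlapped between conditions (edgeR adjusted p = 0.247), with means of 22.3 CPM in 2-D and 33.0 CPM in 3-D. Only 1 of the 11 was called. It was the nearest, the long noncoding RNA ENSG00000255050, at 0.784 and 0.422 CPM in 2-D and 0.146 and 0.0558 CPM in 3-D. It fell by 2.50 ± 0.66 on the log2 scale (edgeR, adjusted p = 0.0360). It overlaps NAPRT on the other strand, rests on 3 counts and 1 count in the 3-D libraries, and lost its call without 3-D replicate 2 (edgeR, adjusted p = 0.122). EEF1D, a subunit of translation elongation factor 1 chosen here after its values were seen, was at 65.8 and 10.2 CPM in 2-D and 35.8 and 11.0 CPM in 3-D. NAPRT, an enzyme of NAD synthesis, was at 3.601, 0.941, 1.07 and 0.558 CPM. For both, replicate 1 was above replicate 2 in each condition, and neither was called. The 5 neighbors without a copy, which lie on the other side of GSDMD, had a median of 1.22 for the larger fold between replicates, against 2.28 for the 11 with a copy.

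Replicates of neighbors with a copy were further apart than those of neighbors without. The larger of the folds between the libraries of a condition had a median of 1.84 over the 31 neighbors with a copy, 1.16 over the 54 without and 1.13 over all tested genes. It passed 2-fold in 13 of the 31 (41.9%), in 1 of the 54 (1.85%) and in 6.16% of all tested genes. Of the 6 genes themselves, NSF and HMOX2 passed it. Levels also differed, with a median in 2-D of 0.435 CPM per kb with a copy and 2.18 without, and the part of the level in the spread of these neighbors was not tested.

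**Figure D4:**
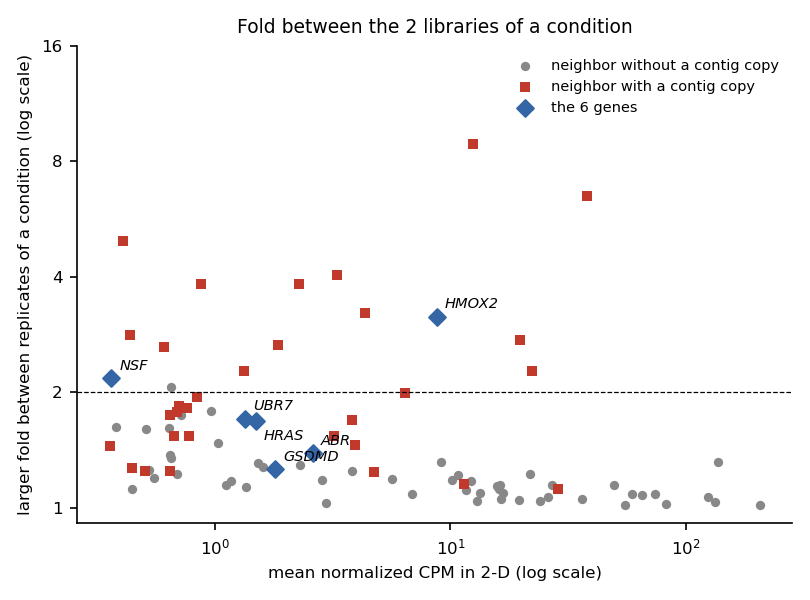
The larger fold between replicates of a condition (log scale) against the mean CPM in 2-D (log scale) for the 6 genes and their neighbors, with a dashed line at 2-fold. Neighbors with a copy passed 2-fold in 13 of 31 cases, also at levels above 10 CPM where EEF1D stood 6.48-fold apart, and 1 of 54 neighbors without a copy did.

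The class from which the genes came also differed in spread within a range of 2-D levels. Of all 322 tested genes with a contig copy, 166 had a mean in 2-D from 1 to 10 CPM, and replicates stood over 2-fold apart in 50 of them (30.1%). Of the 7418 genes without a copy in that range, this was so in 169 (2.28%). Leaving out the 6 chosen genes gave 49 of 161 (30.4%) with a copy. Levels within the range were not matched further. Genes whose every exonic window stands on a contig had the highest shares, with 21 of 40 (52.5%) in that range. Over all levels, replicates stood over 2-fold apart in 44 of the 79 such genes.

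Of the 322 genes, 54 (16.8%) were called and 51 (15.8%) changed by more than 2-fold, against 7.76% and 1.28% of the 22047 without a copy. Without the 6 chosen genes these were 48 (15.2%) and 45 (14.2%) of 316. Both criteria were met by 30 genes, 21 higher and 9 lower in 3-D, of which 20 are protein-coding. They were 25.4% of the 118 genes that were called and beyond 2-fold, where 1.44% of tested genes have a copy. Among the 30, 9 also have a near-identical copy elsewhere among the primary sequences. The choice of the 6 genes is part of these counts, and they are a description with no test.

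**Figure D5:**
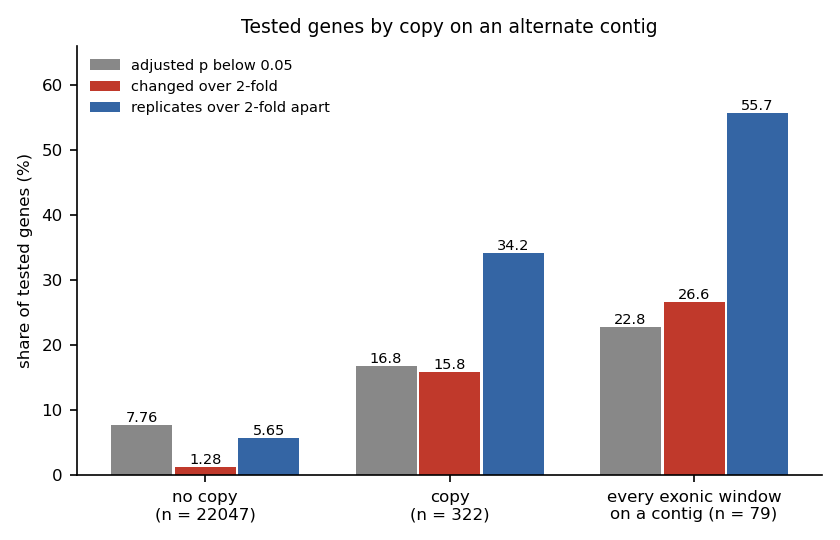
Share of tested genes (%) that were called by edgeR, that changed over 2-fold, or whose replicates stood over 2-fold apart, for genes without a contig copy, with a copy and with every exonic window on a contig. The shares over 2-fold between replicates were 5.65%, 34.2% and 55.7%.

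Other genes with a copy and a change beyond 2-fold, chosen here after their values were seen, included PPT2-EGFL8, a readthrough gene of the major histocompatibility complex, at 0.377 and 0.422 CPM in 2-D and 5.25 and 4.96 CPM in 3-D (log2 fold change 3.67). CDK7, the kinase of the transcription factor TFIIH, was at 1.36 and 7.92 CPM in 2-D and 17.4 and 19.7 CPM in 3-D, with a 2-D spread wider than 2-fold and a log2 fold change of 2.03. ARHGAP11A, a GTPase-activating protein, was at 4.04 and 4.22 CPM in 2-D and 0.778 and 1.17 CPM in 3-D, a log2 fold change of -2.09. DAXX, a histone chaperone, was at 1.92 and 2.30 CPM in 2-D and 0.681 and 0.614 CPM in 3-D.

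The genes whose pattern over the 4 libraries was most like that of each member were found by the Euclidean distance of centred log2 CPM. Before the log2, 0.5 was added to each CPM. They were AKAP17A and PPT2-EGFL8 for UBR7, at 0.44 and 0.50, MTATP6P1 and VAMP7 for NSF, at 0.17 and 0.37, and VAMP7 and MTATP6P1 for HRAS, at 0.29 and 0.55. For GSDMD they were TMEFF1 and UBE2MP1 at 0.16 and 0.19, for ABR ENSG00000255050 and ENSG00000260179 at 0.09 and 0.16, and for HMOX2 ENSG00000205959 and ALG13-AS1 at 0.70 and 0.79. AKAP17A, VAMP7 and MTATP6P1 also have a near-identical copy elsewhere among the primary sequences, and PPT2-EGFL8 and ENSG00000255050 have one on an alternate contig. The added 0.5 shrinks changes at low levels. ENSG00000255050 and ENSG00000260179 lie close to ABR by this distance, with log2 fold changes of -2.50 and -3.25 against -1.22. The distances rest on 4 libraries and describe them only.

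The 6 lists of genes from the same pathways held 100 genes, of which 93 were tested, and 3 were called higher and 4 lower in 3-D, against 7.9% of all tested genes. Their median log2 fold change was 0.02, against -0.00014 for all tested genes. DESeq2 called 0 of them, with 8 at an unadjusted p below 0.05 against 22 in edgeR, the edgeR likelihood ratio test called 1, and library size as the only normalization called 1 higher and 13 lower. Leaving out 2-D replicate 1, 2-D replicate 2 or 3-D replicate 1 gave 3, 2 or 15 calls.

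Among ubiquitin ligases and enzymes of the N-degron pathway, listed with UBR7, 1 of 10 was called. FBXO11, an F-box protein that also carries a UBR box, fell by 0.16 ± 0.03 from 104 to 93.1 CPM (edgeR, adjusted p = 0.0152). Of the 23 SNARE proteins and their partners, listed with NSF, VAMP7 alone was called, a vesicle SNARE at 1.74 and 1.36 CPM in 2-D and 4.82 and 6.86 CPM in 3-D (log2 fold change 1.89 ± 0.21; edgeR, adjusted p = 0.000203). The sum of the 23 lay between 859 and 878 CPM in the 4 libraries.

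Of the 17 genes of RAS, RAF and ERK signaling, listed with HRAS, 2 were called, both lower in 3-D. The kinase MAP2K1 fell by 0.15 ± 0.04 from 58.2 to 52.3 CPM (edgeR, adjusted p = 0.0432). Of the 18 gasdermin and inflammasome genes, 11 were tested, and NINJ1, which ruptures the membrane after gasdermin pores form, rose by 0.34 ± 0.09 from 11.2 to 14.3 CPM (edgeR, adjusted p = 0.0341). GSDMA, GSDMC and 5 others did not pass the filter on low counts.

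Of the 17 genes of RAC1 and related small GTPases and their regulators, listed with ABR, ARHGAP35 rose by 0.11 ± 0.03 from 142 to 153 CPM (edgeR, adjusted p = 0.0476). Of the 15 genes of heme synthesis and breakdown, listed with HMOX2, CPOX, a mitochondrial enzyme of heme synthesis, fell by 0.27 ± 0.07 from 24.7 to 20.5 CPM (edgeR, adjusted p = 0.0350). The sum of that list lay between 506 and 515 CPM in the 4 libraries.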

How the data were processed

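RNA-seq counts of the 4 libraries were analysed. The authors deposited raw counts, which are whole numbers for each gene. By the submitters' processing notes and the study's methods, reads were trimmed with Trim Galore 0.6.3, mapped to hg38 with HISAT2 2.1.0 and counted on GENCODE genes with featureCounts 1.6.4. The deposited normalized table, with the authors' comparison in DESeq2 2.11.40.6, was not used here.

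Counts were tested with edgeR 4.0.16 in R 4.3.3 (TMM, filterByExpr, quasi-likelihood test, condition alone, Benjamini-Hochberg adjustment, threshold 0.05), after a check on simulated data. P-values measure the spread between 2 cultures per condition of 1 cell line. Names and positions are from GENCODE release 44, which matched 60295 of 60564 identifiers. For 22369 tested genes, minimap2 2.31-r1302 placed the longest transcript on hg38. A copy is a match on an alternate contig over 80% or more of the transcript at 98% identity or more, and exonic windows of the length printed were matched exactly. Python 3.11.15, matplotlib 3.10.9, pandas 2.3.3 and numpy 2.4.6 made tables and figures.

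The members, lists and neighbor rule were chosen with earlier results of these data known. Named genes are the 6 members, the nearest tested neighbors and those called, list genes called, genes with a copy and a change beyond 2-fold with those nearest that limit, and the 2 genes most like each member. Alternatives were DESeq2 1.42.0, its size factors in edgeR, edgeR's likelihood ratio test, library size only, 2 count filters, a replicate block, a prior count of 2, windows of 100 and 500 kb, a stricter copy limit, values relative to the neighbors, and each library left out. Some genes that this rule names are not reported here.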

Additional observations from a re-analysis of the deposited data

How the results depend on the processing

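The direction of the 6 genes, by which they were chosen, held under every alternative, and nothing is read from that. Relative to the median of its neighbors, the log2 fold change was 2.09 for UBR7 and 2.17 for NSF. With 1 library left out it ranged from 2.33 to 3.11 for UBR7, 2.03 to 3.13 for NSF, 1.71 to 2.48 for HRAS, -1.94 to -1.60 for GSDMD, -1.43 to -0.96 for ABR and -2.19 to -0.54 for HMOX2. The 1782 genes called became 1139 with the likelihood ratio test, 795 with DESeq2 and 974 to 2643 with 1 library left out. The 10 called neighbors became 3 with DESeq2, 21 with no filter on low counts, 4 within 100 kb and 12 to 21 with 1 library left out. The 7 called list genes became 1 with the likelihood ratio test, 0 with DESeq2 (8 at an unadjusted p below 0.05), 14 with library size only and 2 to 15 with 1 library left out. DESeq2 gave no adjusted p for 3 of these 10 neighbors and 1 of these 7 list genes. The cause of these differences was not tested.

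Replicate numbers did not pair the libraries, with a correlation of -0.01 between the deviations of replicate 1 in 2-D and in 3-D. With the replicate block, 2167 genes, 15 neighbors and 8 list genes were called. A sum of primary and contig identifiers gave no value, since the files list 1 identifier per gene, and a minimum of 10 counts in every library gave none for NSF. NSF held 7 to 42 counts in a library and GSDMD 10 to 69, which limits the precision of both.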

Other observations

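The genes below were chosen here after their values were seen. In the major histocompatibility complex on chromosome 6, 3 genes with a contig copy were high in 2-D replicate 2 alone. PBX2, a homeobox factor, was at 0.958 and 7.53 CPM in 2-D and 1.22 and 0.669 CPM in 3-D. VARS1, the cytosolic valyl-tRNA synthetase, was at 1.54 and 9.96 CPM in 2-D and 2.14 and 1.56 CPM in 3-D. DDAH2 was at 0.261 and 2.82 CPM in 2-D and 0.0973 and 0.446 CPM in 3-D. None of the 3 was called, and PBX2 also has a near-identical copy elsewhere among the primary sequences. Elsewhere in the complex, POLR1H, also with a contig copy, was high in 3-D replicate 2 alone, at 4.46 CPM. On chromosome 16, PARN, a poly(A)-specific ribonuclease, was low in 2-D replicate 1 alone, at 0.842 CPM against 13.2, 17.7 and 10.3 CPM in the other libraries, and BFAR, which lies next to it, was high there, at 13.1 CPM against 3.44, 3.02 and 3.29 CPM.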
